A study of Temnothorax americanus and Temnothorax ambiguus and Temnothorax curvispinosus with 48 samples.

Results

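Fatty acid synthesis enzymes were followed in 6 species of Temnothorax ants, 3 slavemakers and 3 of their hosts. The members were the assembled transcripts (contigs) whose best protein match carried the name of fatty acid synthase, acetyl-CoA carboxylase, ATP-citrate synthase, a malonyl enzyme or a long-chain-fatty-acid enzyme. Such names were found only among the 4088 contigs that the study had called different between its behavioural states, of 339894 contigs in all 6 assemblies. Only 2140 of the 4088 carried the title of a protein match, and the others could not be found by name. The terms found 44 members, of which 41 matched fatty acid synthase, 2 matched acetyl-CoA carboxylase and 1 matched ATP-citrate synthase. None carried a malonyl or long-chain-fatty-acid name. They lay in T. duloticus with 19 contigs, T. pilagens with 19 contigs and T. ambiguus with 6 contigs, and there were 0 in T. americanus, T. longispinosus and T. curvispinosus. A species with 0 members had no such contig among its named calls, which does not show how its fatty acid enzymes behaved.

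In the animal cell, ATP-citrate synthase splits citrate in the cytosol and so supplies acetyl-CoA. Acetyl-CoA carboxylase turns acetyl-CoA into malonyl-CoA, the committed step of the pathway, and fatty acid synthase joins the units into a saturated chain at the expense of NADPH. In insects the pathway works mainly in the fat body, where its products are stored as fat, and in the oenocytes, where elongases, desaturases and reductases take the chains on towards the hydrocarbons of the cuticle that ants use to recognise nestmates.

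RNA came from pools of whole adult workers, with 4 libraries per species and state and 48 libraries in all. Raiding slavemakers (T. americanus, T. duloticus and T. pilagens) were taken in fights outside a host nest in laboratory raids, and non-raiding slavemakers were taken in autumn, after the raiding season, so that season and state cannot be told apart. Raiding hosts (T. longispinosus, T. curvispinosus and T. ambiguus), called defending here, were workers fighting the raiders outside the nest, and non-raiding hosts were foragers taken before the raid, so that task and state cannot be told apart. The slavemaker workers were chosen as infertile after dissection of the ovaries. The ants came from field colonies kept in the laboratory and had no altered allele and no agent. Each pool mixed workers of several colonies, the same colonies were used for both states without labels that tie pools to each other, and p-values measure the spread between pools. Ages of the ants are not given in the sources used here. In the study 6 libraries were left out as unlike their group, among them raiding library DR_687 of T. pilagens, and the values below rest on the 42 kept libraries unless DR_687 is named. The libraries of the 3 species with members held 10097289 to 49129121 counts.

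The slavemaker labels and the names in the files go against each other. Contigs named for a single library bear a tag in their names. The paper joined libraries in pairs in its first assembly step, and some pairs mixed the states, so such a name may stand for a pair. In hosts the tags of before-raid libraries end in br and those of during-raid libraries end in dr. The tagged slavemaker libraries labelled non-raiding all carry smadr, which ends in dr and so goes against their label. Those labelled raiding carry smifors, a tag that the sources used here do not explain. Its ending ors has the initials of out of raiding season, the paper's name for its non-raiding slavemakers. Read so, this tag would go against their label too. The count table of T. duloticus also heads all 4 libraries labelled raiding as before-raid, and they were matched by library number. Raiding and non-raiding in slavemakers therefore mean the libraries labelled so, and every slavemaker direction below would turn round if those labels were exchanged.

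Because the study's calls in the same contrast chose the members, their fold changes are a description and carry no p-value. Levels are CPM (read counts scaled to a fixed library total) after trimmed-mean scaling of library sizes. A fold change is the log2 of the raiding level over the non-raiding level, with its standard error (SE), and a contig was counted as called where edgeR's quasi-likelihood test gave an adjusted p under 0.05 over all contigs tested in that species. Contig lengths were not used, so levels are compared between states and not between contigs. In whole-worker RNA, fewer cells of a type and less RNA per cell cannot be told apart.

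**Figure D1:**
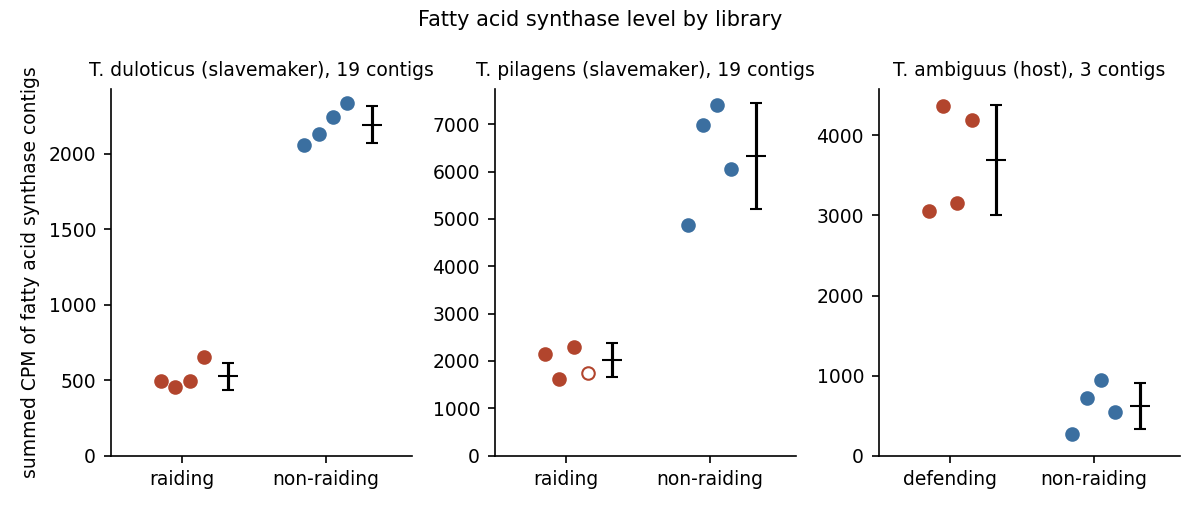
Summed CPM of the member contigs matched to fatty acid synthase in each library, raiding or defending on the left and non-raiding on the right. The sums hold 19 contigs in T. duloticus, 19 in T. pilagens and 3 in T. ambiguus. Filled points are kept libraries, the open point is raiding library DR_687, and black marks give the mean and SD of the kept libraries; the sums in the slavemaker libraries labelled raiding lie below all non-raiding ones, and the T. ambiguus defenders lie above.

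Summed over the member contigs of a species, fatty acid synthase was lower in raiding than in non-raiding T. duloticus and T. pilagens. The sum was higher in defending than in non-raiding T. ambiguus, as the plot of summed levels by library shows. In T. duloticus the 19 contigs summed to 495, 453, 497 and 655 CPM in the raiding libraries, against 2060, 2130, 2245 and 2334 CPM in the non-raiding libraries. The means were 525 ± 88.8 CPM in raiding and 2192 ± 121 CPM in non-raiding libraries (SD, n = 4 each), a log2 ratio of -2.06. In T. pilagens the 19 contigs summed to 2144, 1618 and 2306 CPM in the kept raiding libraries, against 4877, 6983, 7407 and 6063 CPM in the non-raiding libraries. Their means were 2022 ± 360 CPM in raiding (SD, n = 3) and 6333 ± 1121 CPM in non-raiding libraries (SD, n = 4), a log2 ratio of -1.65. In T. ambiguus the 3 contigs summed to 3057, 4366, 3150 and 4191 CPM in defenders, against 267, 716, 947 and 542 CPM in non-raiding workers. The means were 3691 ± 683.2 CPM in defenders and 618 ± 287 CPM in non-raiding workers (SD, n = 4 each), a log2 ratio of 2.58. In none of the 3 species did the sums of the states overlap. These sums rest on contigs chosen for differing, so neither the gaps nor the opposite signs were tested. With exchanged slavemaker labels the log2 ratios would be 2.06 in T. duloticus and 1.65 in T. pilagens, the same sign as in T. ambiguus.

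**Figure D2:**
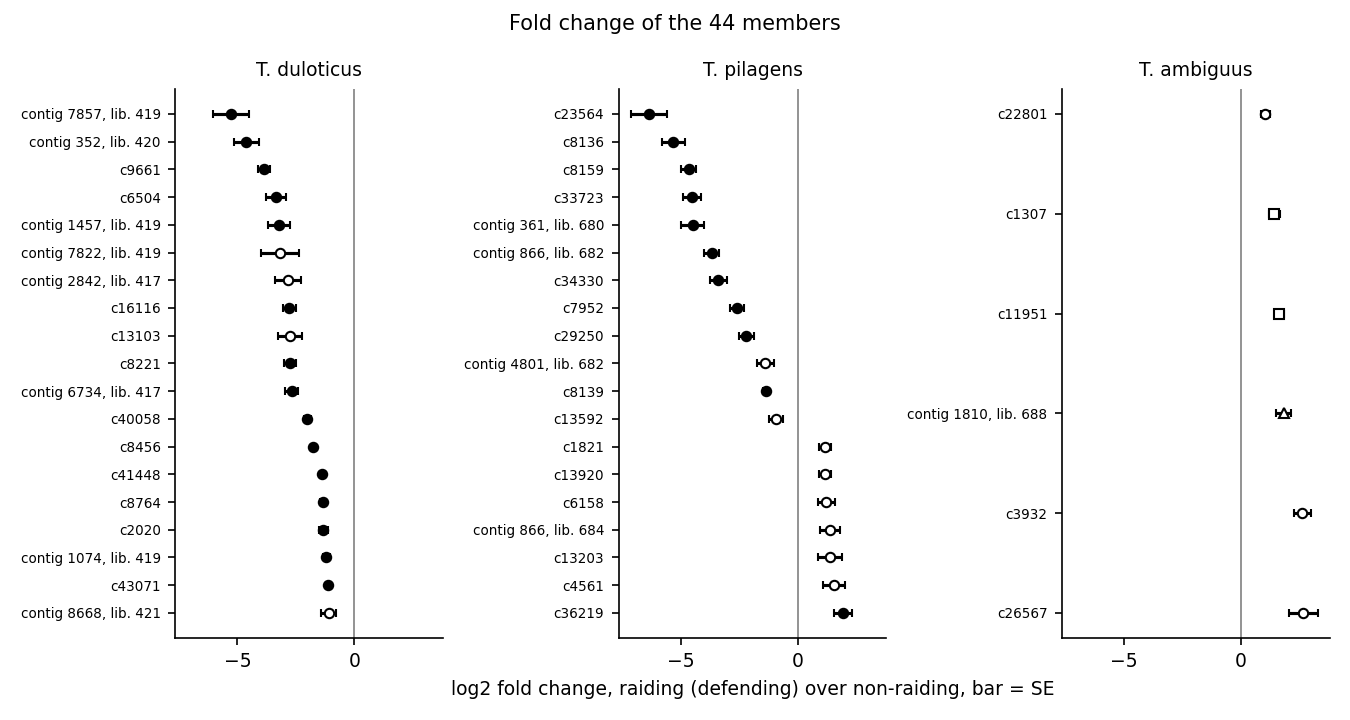
Log2 fold change of each of the 44 members, raiding (defending in T. ambiguus) over non-raiding, with bars of 1 SE, ordered within each species. Filled symbols are contigs called by the quasi-likelihood test; circles are fatty acid synthase, squares acetyl-CoA carboxylase and the triangle ATP-citrate synthase, and all 19 contigs of T. duloticus lie below 0, 12 of 19 in T. pilagens lie below 0, and all 6 in T. ambiguus lie above 0.

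In T. duloticus, which mainly raids T. curvispinosus, all 19 fatty acid synthase contigs were lower in the libraries labelled raiding, with log2 fold changes between -5.28 and -1.10 and a median of -2.75, beside a median of 0.01 over all 41591 contigs tested. All 19 passed the filter on low counts. The quasi-likelihood test called 15 of them, all lower, where it called 0.284% of all tested contigs lower, and the states did not overlap in 18 of 19, where 4.97% of all contigs were lower without overlap. The likelihood ratio test of edgeR called 18, where it called 1.56% of all contigs lower, and DESeq2 called 18, where it called 2.74% lower. These shares describe contigs that were chosen by such calls, and nothing is read from them. Without non-raiding library BR_419 or BR_420 the call count dropped to 9, and it ranged from 9 to 17 over the fits that left out 1 library. Over all contigs the count was 151, against 46 without BR_419, 35 without BR_420 and 35 to 196 over these fits.

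The contig of highest CPM, c8456, stood at 145, 137, 151 and 167 CPM in the raiding libraries, against 504, 496, 539 and 510 CPM in the non-raiding libraries. The libraries within a state lay close together and the states were far apart, with a log2 fold change of -1.77 (SE 0.08). Contig c8221 stood at 53.1, 48.1, 53.7 and 107 CPM in raiding libraries, against 401, 436.9, 433.2 and 490 CPM in non-raiding libraries. Raiding library DR_424 stood apart from the other 3 raiding libraries, and the log2 fold change was -2.75 (SE 0.26). Contig c8764 stood at 87.1, 91.4, 77.1 and 72.5 CPM in raiding libraries, against 165, 219, 223 and 226 CPM in non-raiding libraries. Here library DR_424 was the lowest raiding library, and the log2 fold change was -1.34 (SE 0.12).

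Contig c6504 differed more, with 17.1, 8.92, 19.1 and 43.1 CPM in raiding libraries, against 228, 226, 213 and 234 CPM in non-raiding libraries. Its log2 fold change was -3.36 (SE 0.42), and it was called in 3 of the 8 fits that left out 1 library. Contig c41448 stood at 52.0, 56.0, 64.5 and 66.2 CPM in raiding libraries, against 162, 139, 167 and 149 CPM in non-raiding libraries, with a log2 fold change of -1.37 (SE 0.10). Contig c16116 stood at 16.4, 11.3, 17.6 and 31.8 CPM in raiding libraries, against 121, 118, 140 and 150 CPM in non-raiding libraries, with a log2 fold change of -2.78 (SE 0.29). In neither contig did the states overlap.

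The contig that differed most, contig 7857 of BR_419, had 15, 5, 2 and 36 counts in the raiding libraries, against 571, 512, 1272 and 1026 counts in the non-raiding libraries. Its log2 fold change of -5.28 (SE 0.76) rested on few raiding counts, and the call was kept in 1 of the 8 fits that left out 1 library, the fit without raiding library DR_424. The member nearest to no difference was contig 8668 of DR_421, at 4.86, 8.54, 13.7 and 7.70 CPM in raiding libraries, against 17.3, 12.1, 23.9 and 21.6 CPM in non-raiding libraries. It was the single T. duloticus member whose states overlapped, with a log2 fold change of -1.10 (SE 0.32), and it was not called. Contigs outside the study's calls carry no protein name, so none just outside the choice can be given. Contig 8668 was also the single T. duloticus member named for a raiding library, while 7 others were named for a non-raiding library and 11 belonged to the joint assembly. Such a name may stand for a pair of libraries that mixed the states.

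The T. duloticus contigs did not vary alike within the states. In raiding libraries the median SD of log2 CPM over the 19 contigs was 0.53, beside 0.47 over all tested contigs, and in non-raiding libraries it was 0.19, beside 0.42. The calls that chose the members depend on this spread, so nothing is read from the SDs beside those of all contigs. Library DR_424 was the highest raiding library for 15 of the 19 contigs and library DR_422 the lowest for 13. Size of difference also split the contigs: 12 had a log2 fold change under -2 and 7 lay between -2 and 0, and c8456 made up 25.5% to 30.3% of the summed level in raiding libraries and 21.8% to 24.5% in non-raiding libraries.

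T. pilagens mainly raids T. ambiguus, and its 19 fatty acid synthase contigs differed in both directions. They comprised 12 lower and 7 higher contigs in the libraries labelled raiding, with log2 fold changes between -6.36 and 1.92 and a median of -1.38, beside 0.02 over all 38402 contigs tested. All 19 passed the filter on low counts. The quasi-likelihood test called 10 lower and 1 higher, where it called 1.94% of all tested contigs lower and 0.94% higher. The states did not overlap in 11 of the 12 lower and in all 7 higher contigs, where 8.98% of all contigs were lower and 8.26% were higher without overlap. Again the choice of members fixes these shares.

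**Figure D3:**
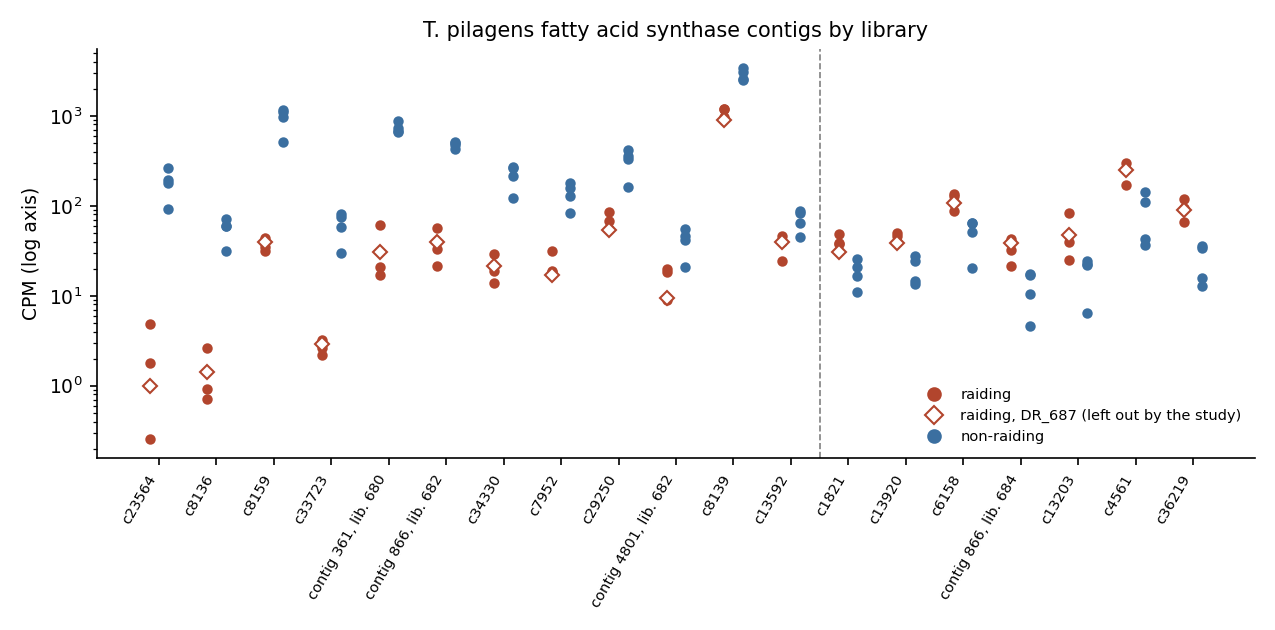
CPM of the 19 T. pilagens fatty acid synthase contigs in each library on a log axis, raiding left and non-raiding right within each contig, ordered by log2 fold change with a dashed line between the 12 lower and the 7 higher contigs. Open diamonds mark raiding library DR_687, which the study left out; it lies below every non-raiding library in the 12 lower contigs and above every one in the 7 higher contigs.

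Among the 12 lower contigs, c8139 held the largest part of the members' counts. It stood at 1196, 976 and 1195 CPM in the kept raiding libraries, against 2512, 3032, 3412 and 2549 CPM in the non-raiding libraries, a log2 fold change of -1.36 (SE 0.14). Its match spanned 2423 residues, the longest of all members, and it made up 50.9% to 60.3% of the summed level in the 4 raiding libraries, DR_687 included, and 42.0% to 51.5% in the non-raiding libraries. Contig c8159 stood at 34.6, 31.7 and 44.2 CPM in raiding libraries, against 508, 1167, 1089 and 964 CPM in non-raiding libraries, a log2 fold change of -4.66 (SE 0.32). The gap in c8159 was far wider than in c8139, and its states were also apart in every library.

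Contig 361 of BR_680 stood at 21.0, 16.9 and 61.3 CPM in raiding libraries, against 729, 685.5, 879 and 659 CPM in non-raiding libraries, a log2 fold change of -4.48 (SE 0.49). Contig 866 of BR_682 stood at 33.2, 21.4 and 57.0 CPM in raiding libraries, against 431.9, 508, 503 and 468 CPM in non-raiding libraries, a log2 fold change of -3.68 (SE 0.32). In both, raiding library DR_686 was the highest raiding library and still lay below every non-raiding one. Contig c29250 stood at 68.0, 54.9 and 85.3 CPM in raiding libraries, against 164, 418.4, 357 and 329 CPM in non-raiding libraries, a log2 fold change of -2.19 (SE 0.32), and was called in 5 of the 7 fits that left out 1 library.

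The largest difference of all 44 members was that of c23564, with 5, 31 and 72 counts in raiding libraries, or 0.256, 1.80 and 4.89 CPM, against 92.2, 194, 263 and 181 CPM in non-raiding libraries. Its log2 fold change of -6.36 (SE 0.77) came from low raiding counts that differed much among themselves, but it was called in all 7 fits that left out 1 library. The T. pilagens member nearest to no difference was c13592, at 36.6 ± 11.4 CPM in raiding libraries (SD, n = 3) and 69.6 ± 19.1 CPM in non-raiding libraries (SD, n = 4). Its log2 fold change was -0.93 (SE 0.28), the states overlapped and it was not called. The remaining lower contigs, c8136, c33723, c34330, c7952 and contig 4801 of BR_682, had log2 fold changes between -5.31 and -1.38.

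Of the 7 higher contigs, the one of highest CPM, c4561, stood at 300.4, 169 and 259 CPM in raiding libraries, against 36.6, 111, 42.5 and 141 CPM in non-raiding libraries, a log2 fold change of 1.55 (SE 0.47). The raiding libraries all lay above the non-raiding ones, whose levels spread widely, and c4561 was not called. Contig c36219 stood at 94.9, 65.7 and 120 CPM in raiding libraries, against 12.9, 35.9, 15.8 and 34.0 CPM in non-raiding libraries, a log2 fold change of 1.92 (SE 0.38). It was the single higher contig that was called, and the call was lost in all 7 fits that left out 1 library.

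Contig c6158 stood at 128, 87.9 and 135 CPM in raiding libraries, against 20.5, 64.7, 50.9 and 63.5 CPM in non-raiding libraries, a log2 fold change of 1.23 (SE 0.35). Contig c13203 stood at 39.7, 24.7 and 82.9 CPM in raiding libraries, against 6.46, 24.4, 22.6 and 21.8 CPM in non-raiding libraries, a log2 fold change of 1.39 (SE 0.50). Its raiding libraries spread widely and the lowest of them was next to the highest non-raiding library. Contig c1821 had 41.7 ± 5.47 CPM in raiding and 18.7 ± 6.31 CPM in non-raiding libraries, c13920 had 45.4 ± 5.26 CPM in raiding and 20.01 ± 7.03 CPM in non-raiding libraries, and contig 866 of DR_684 had 31.99 ± 10.8 CPM in raiding and 12.3 ± 6.04 CPM in non-raiding libraries (SD, n = 3 raiding and n = 4 non-raiding). Their log2 fold changes were 1.16, 1.18 and 1.37, and none was called. Under the likelihood ratio test of edgeR, 18 of the 19 contigs were called, 6 of them higher, where 5.35% of all contigs were called, and DESeq2 called 17, where it called 7.4%.

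Summed apart, the 12 lower contigs stood at 1401 ± 209 CPM in raiding and 6105 ± 1084 CPM in non-raiding libraries, and the 7 higher contigs at 622 ± 152 CPM in raiding and 227 ± 104 CPM in non-raiding libraries (SD, n = 3 raiding and n = 4 non-raiding). The higher contigs made up 32.3%, 27.6% and 31.4% of the members' summed level in the kept raiding libraries. In the non-raiding libraries they made up 2.17%, 4.21%, 2.40% and 5.46%. The split by sign of the same contrast fixes the direction of these shares.

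Library DR_687 was the single raiding library of these species that had no part in the calls. In it the 19 contigs summed to 1753 CPM, between the kept raiding libraries, and the higher contigs made up 34.5% of the sum. It lay below every non-raiding library in all 12 lower contigs, where 26.4% of all tested contigs did so and 79.7% of those that were lower without overlap in the kept libraries. It lay above every non-raiding library in all 7 higher contigs, where 24.8% of all tested contigs did so and 71.4% of those that were higher without overlap. For 5 of the 19 contigs its level lay outside the range of the 3 kept raiding libraries. As a single library it allowed no test, and the non-raiding libraries set against it took part in the choice of the members.

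Among the non-raiding T. pilagens libraries, library BR_680 was the lowest for 18 of the 19 contigs, in both directions of difference. The median SD of log2 CPM over the contigs was 0.44 in raiding libraries, beside 0.39 over all tested contigs, and 0.55 in non-raiding libraries, beside 0.45. Here too the choice of members depends on this spread, and nothing is read from the SDs beside those of all contigs. In the fits that left out 1 library the number of called member contigs ranged from 8 to 12. Over all contigs these fits called 248 to 823, against 1105 in the main fit.

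The protein matches showed that many contigs shared a record. The 41 fatty acid synthase contigs matched 16 records of other ants and a bee, with 8 records in T. duloticus and 10 in T. pilagens, of which 4 were shared between these slavemakers. The shared records took 14 of the 19 contigs in T. duloticus and 11 of the 19 in T. pilagens. Matches spanned 89 to 981 residues in T. duloticus and 209 to 2423 residues in T. pilagens. Contigs on a shared record may be pieces of a single transcript, alleles or near-identical gene copies, and the counting method divides reads among similar contigs by estimate, so the level of each single contig is uncertain where such copies exist and contigs are not separate genes.

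A single record of the carpenter ant Camponotus floridanus, EFN68400.1, took 6 contigs in T. duloticus, all lower, which summed to 265 CPM in raiding and 1271 CPM in non-raiding libraries. In T. pilagens the same record took 4 contigs, 3 lower and c6158 higher, which summed to 224 CPM in raiding and 2198 CPM in non-raiding libraries. Of the 6 records with more than 1 contig in T. pilagens, 4 held contigs of both directions. On record EFN74822.1 of the same ant, c34330 had a log2 fold change of -3.39 while c1821 and c4561 were at 1.16 and 1.55, and the 3 contigs summed to 305 CPM in raiding and 319 CPM in non-raiding libraries. On record EFN69124.1, c8136 was at -5.31 and c13203 at 1.39. On record EFN85734.1 of the jumping ant Harpegnathos saltator, contig 4801 of BR_682 was at -1.38 and contig 866 of DR_684 at 1.37, and they summed to 47.7 CPM in raiding and 53.2 CPM in non-raiding libraries. The same 3 records took contigs that were all lower in T. duloticus. All 4 T. pilagens contigs named for a single library were named for a library of the state in which they were higher. As libraries were assembled in pairs, some of both states, the name does not give the state assembled.

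T. ambiguus was the single host with members, and here the contigs covered all 3 enzymes of the chain. All 6 were higher in defenders, with log2 fold changes between 1.04 and 2.67 and a median of 1.73, beside -0.01 over all 33331 contigs tested. The states did not overlap in any of the 6, where 2.83% of all contigs were higher without overlap. The quasi-likelihood test called 0 of the 6 and 0% of all contigs in this species, with 2683 at an unadjusted p under 0.05. The likelihood ratio test of edgeR called all 6, where it called 0.477% of contigs higher, and DESeq2 called all 6, where it called 0.735% higher. The calls in T. ambiguus thus rest on the choice of test.

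**Figure D4:**
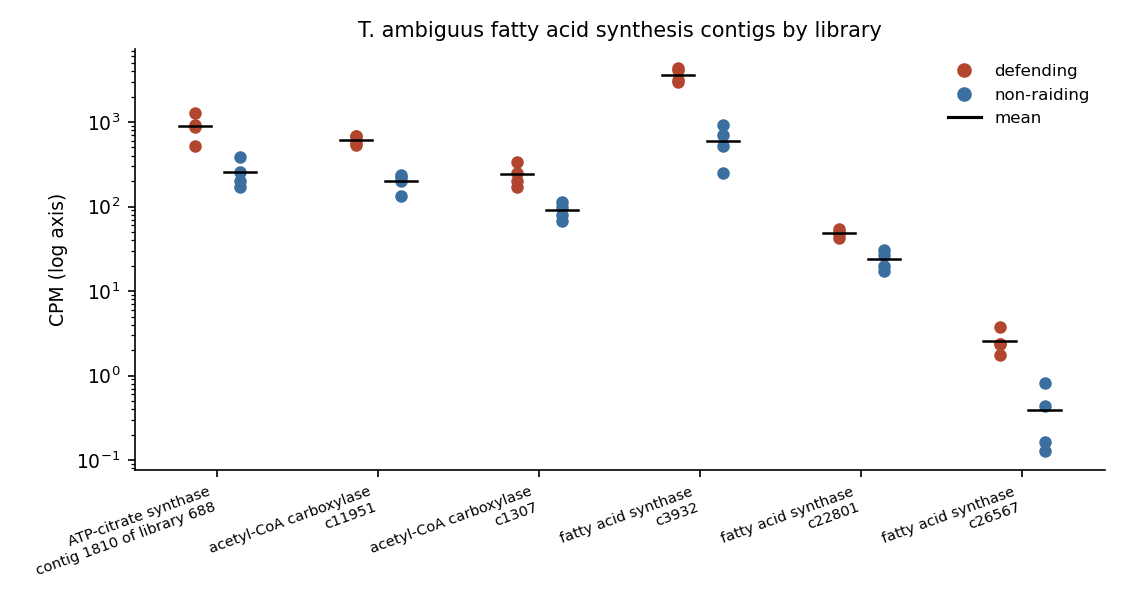
CPM of the 6 T. ambiguus members in each library on a log axis, defending left and non-raiding right within each contig, with the mean as a black line, n = 4 each. In every contig the 4 defending libraries lie above the 4 non-raiding libraries.

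ATP-citrate synthase, contig 1810 of BR_688, stood at 528, 866, 928 and 1292 CPM in defenders, against 172, 258, 387 and 203 CPM in non-raiding workers. The defenders spread more than the non-raiding workers, and the log2 fold change was 1.82 (SE 0.32). Acetyl-CoA carboxylase contig c11951 stood at 538, 685.2, 567 and 685.4 CPM in defenders, against 132, 224, 235 and 202 CPM in non-raiding workers, a log2 fold change of 1.64 (SE 0.19). The second acetyl-CoA carboxylase contig, c1307, stood at 201, 338, 252 and 171 CPM in defenders, against 68.3, 98.2, 114 and 79.2 CPM in non-raiding workers, a log2 fold change of 1.42 (SE 0.24). Both contigs matched the same record over 2359 residues, so that their reads could be divided between them, and both lay higher in every defending library.

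Fatty acid synthase contig c3932 matched 2413 residues of the leafcutter ant Acromyrmex echinatior and stood at 3008, 4312, 3105 and 4134 CPM in defenders, against 249, 696, 915 and 514 CPM in non-raiding workers. Its log2 fold change was 2.62 (SE 0.36). It made up 98.4% to 98.8% of the 3 summed fatty acid synthase members in defenders and 93.5% to 97.2% in non-raiding workers. Contig c22801, with a match of 174 residues, stood at 47.0, 50.6, 42.5 and 54.3 CPM in defenders, against 17.3, 19.9, 30.9 and 26.5 CPM in non-raiding workers, a log2 fold change of 1.04 (SE 0.19). Contig c26567 matched only 30 residues and had 23, 45, 23 and 29 counts in defenders, against 2, 2, 7 and 14 counts in non-raiding workers, a log2 fold change of 2.67 (SE 0.61). Its name rests on the shortest match of all members. Non-raiding library BR_688 was the lowest for all 6 contigs, and none of the 6 was named for a defending library.

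Other genes around the pathway were gathered by fixed names for acetyl-CoA and NADPH supply, chain elongation, reduction and desaturation, activation and carriage, storage, breakdown and control. They too could be found only among contigs that the study called in this contrast, so their counts are descriptions. T. pilagens had 42 such contigs, of which 25 were called lower and 6 higher, where 1.94% of all contigs were called lower and 0.94% higher. T. duloticus had 14, of which 2 were called lower and 2 higher, where 0.284% of all contigs were called lower and 0.0793% higher. T. ambiguus had 13, of which 0 were called, against 12 by the likelihood ratio test, where that test called 0.9% of all contigs in either direction. As the study's calls chose all of them, nothing is read from these shares. The median log2 fold change of these contigs was -1.04 in T. pilagens, -0.92 in T. duloticus and 1.27 in T. ambiguus. Without 1 library the number called in T. pilagens ranged from 15 to 26, and in T. duloticus from 1 to 4. Over all contigs these fits called 248 to 823 in T. pilagens and 35 to 196 in T. duloticus.

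**Figure D5:**
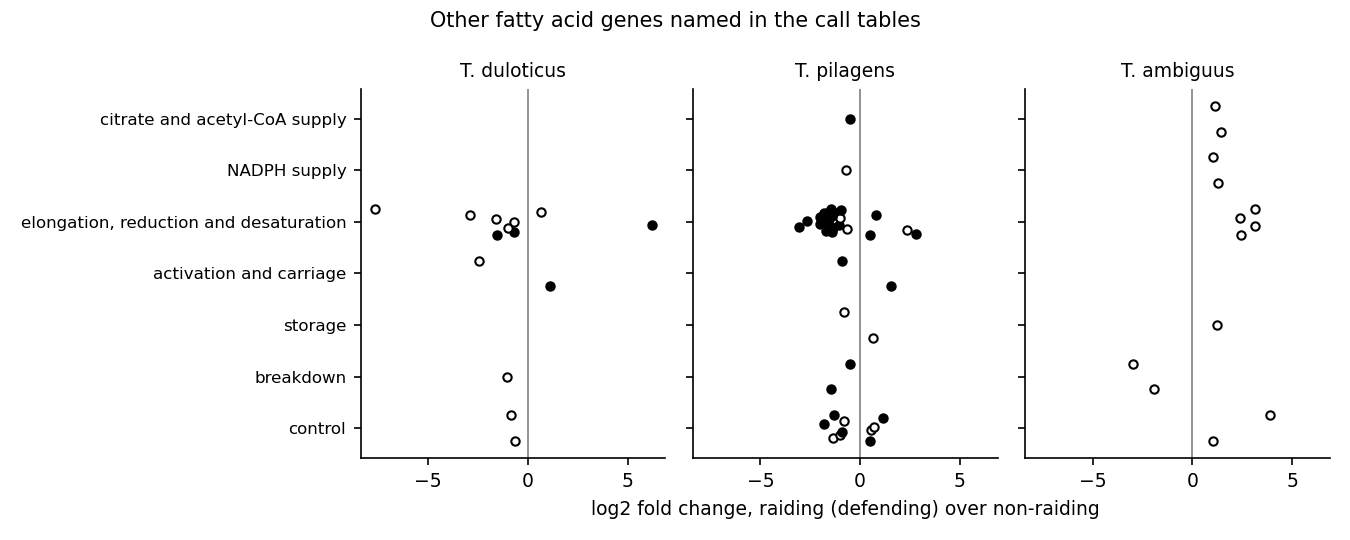
Log2 fold change of the other fatty acid contigs found by name among the study's calls, raiding (defending in T. ambiguus) over non-raiding, by step of the pathway from top to bottom, in T. duloticus, T. pilagens and T. ambiguus. Filled points were called by the quasi-likelihood test; in T. pilagens 20 of the 24 contigs of elongation, reduction and desaturation lie below 0, and in T. ambiguus all 4 lie above 0.

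In T. ambiguus 11 of the 13 contigs lay above 0 and 2 below, and all 13 are given here since the naming rule chose none. NADP-dependent malic enzyme c8377, which makes NADPH, stood at 965 ± 154 CPM in defenders and 462 ± 56.2 CPM in non-raiding workers, and 6-phosphogluconate dehydrogenase c37450, another NADPH source, at 210 ± 37.7 CPM in defenders and 86.9 ± 17.4 CPM in non-raiding workers (SD, n = 4 each). Acetyl-coenzyme A synthetase c1814 and pyruvate carboxylase c8115 had log2 fold changes of 1.44 and 1.14. Sterol regulatory element-binding protein c13003, the transcription factor that turns on lipid synthesis genes in animals, stood at 288 ± 37.0 CPM in defenders and 141 ± 39.7 CPM in non-raiding workers (SD, n = 4 each). Its log2 fold change was 1.03 (SE 0.21).

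Elongase contigs c3582 and c13506 had log2 fold changes of 2.41 and 2.47, and desaturase contigs c8447 and c2708 had 3.15 and 3.16. Delta(11) desaturase c8447, the one of highest CPM, stood at 3462 ± 1325 CPM in defenders and 391 ± 490 CPM in non-raiding workers (SD, n = 4 each). The lipid droplet protein c4486 was at 1.23 and insulin-degrading enzyme c18616 at 3.90. The latter stood at 0 to 0.438 CPM in non-raiding workers and 1.35 to 4.59 CPM in defenders. Its fold change thus depends on the prior count of the fit. The contigs below 0 were c9744 and c11536, both short/branched chain acyl-CoA dehydrogenases, enzymes that break down branched-chain acyl groups in mitochondria, at -2.99 and -1.90. Of the 13, pyruvate carboxylase c8115 and c9744 overlapped between the states and the other 11 did not, 10 of them higher and 1 lower, where 2.83% of all contigs were higher and 2.54% lower without overlap.

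In T. pilagens the largest group was that of fatty acyl-CoA reductases, which turn fatty acyl chains into alcohols: 13 of 16 contigs were called lower and 1 higher, with log2 fold changes between -3.05 and 2.79, where 1.94% of all contigs were called lower and 0.94% higher. These reductases, too, were known by name only among the study's calls. The one that differed most among the called, c2187, stood at 83.5 ± 16.1 CPM in raiding (SD, n = 3) and 693.5 ± 137 CPM in non-raiding libraries (SD, n = 4). The log2 fold change was -3.05 (SE 0.20). Elongases had 3 of 4 contigs called lower, and desaturases had 2 of 4 called lower and 2 higher. Acetyl-coenzyme A synthetase c2051 was at -0.49 and acyl-CoA dehydrogenase c17178 at -1.46, both called lower, while fatty acid-binding protein c17188 was called higher at 1.56. The control names held 6 contigs of an insulin-like growth factor binding complex protein, 3 of them called lower, of which c29018 differed most at -1.81, 2 insulin-degrading enzymes called higher at 0.48 and 1.13, and 2 insulin receptors at 0.56 and 0.71 that were not called.

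In T. duloticus the called contigs were reductase c11092 at -0.69, elongase c10034 at -1.54, fatty acid-binding protein c2233 at 1.09 and Delta(11) desaturase c23560 at 6.20. The desaturase was listed at 0 to 0.118 CPM in the non-raiding libraries, with a highest non-raiding count of 4, and at 1.90 to 7.44 CPM in the raiding libraries, so its fold change depends on the prior count of the fit. Fatty acid-binding protein stood at 159 ± 29.3 CPM in raiding and 75.1 ± 8.62 CPM in non-raiding libraries (SD, n = 4 each). T. americanus, with 0 members, had 17 contigs of these lists, of which 3 were called higher and 2 lower, where 0.421% of all contigs were called higher and 0.384% lower. All 4 reductases and 6 of the 7 elongases lay below 0, with 1 reductase called at -1.08 and elongase c3054 called at -1.19. Both Delta(11) desaturases lay above 0, c6924 at 0.90 and called higher, and c2831 at 2.04 and not called. The other contigs called higher were fatty acid-binding protein c697 at 2.72 and a lipid droplet protein contig at 0.79. T. longispinosus had 1 such contig and T. curvispinosus had 2, with 0 called, in tests that called 0 contigs of any kind in either species, with 1447 and 1270 at an unadjusted p under 0.05.

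Markers of tissues moved with the same contrast, and their part in the results was not tested. In T. duloticus the summed level of 2 vitellogenin contigs, yolk proteins made in the fat body, was 598 to 2654 CPM in raiding libraries and 3802 to 14446 CPM in non-raiding libraries. Of the pair, vitellogenin-3 contig c1942 was at -2.40 and Vitellogenin-6 contig c12466 at 0.93, neither called. In the same species the sum of 3 vitellogenin receptor contigs, an ovary marker, was 5.16 to 23.4 CPM in raiding and 45.8 to 57.2 CPM in non-raiding libraries. The 6 gut contigs summed to 124 to 191 CPM in raiding and 229 to 590 CPM in non-raiding libraries. Of them 5 lay below 0 and 1 above, with 2 Trypsin-7 contigs called lower. The sum of the 3 muscle contigs overlapped, at 690 to 922 CPM in raiding and 659 to 748 CPM in non-raiding libraries. Each muscle contig alone did not overlap. The unc-89 contig c1203 was at 0.78, paramyosin contig c6723 at -0.83 and troponin C contig c41745 at -1.92, none called. In T. pilagens 5 contigs of cytochrome P450 4g15, an oenocyte marker whose enzyme family makes hydrocarbons in flies, summed to 1374 to 1823 CPM in raiding and 3880 to 5329 CPM in non-raiding libraries, with 3 called lower and 2 higher.

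The 18 gut contigs of T. pilagens summed to 1565 to 1687 CPM in raiding and 3143 to 4211 CPM in non-raiding libraries. The 11 muscle contigs of T. pilagens summed to 1526 to 1619 CPM in raiding and 1059 to 1394 CPM in non-raiding libraries. Among those tested, 10 gut contigs lay below 0 and 1 above, and 7 muscle contigs lay above 0 and 3 below. Its single vitellogenin receptor contig stood at 6.93 to 9.10 CPM in raiding and 10.4 to 23.8 CPM in non-raiding libraries. Its single vitellogenin contig overlapped, at 196 to 543 CPM in raiding and 25.2 to 222 CPM in non-raiding libraries. In T. ambiguus the sum of 2 vitellogenin contigs also overlapped, at 2040 to 11848 CPM in defenders and 62.7 to 2201 CPM in non-raiding workers. The sum of 6 gut contigs did not, at 141 to 1514 CPM in defenders and 11.8 to 50.5 CPM in non-raiding workers. Chymotrypsin-1 contig c21941 held most of that sum, at 134 to 1387 CPM in defenders and 8.32 to 46.3 CPM in non-raiding workers. It and Aminopeptidase N contig c9621 did not overlap between the states. Chymotrypsin-1 contig c8955 overlapped, as did Trypsin-7 contigs c28808, c22108 and c22109, which fell under the filter on low counts. The vitellogenin receptor contig of T. ambiguus stood at 32.6 to 107 CPM in defenders and 2.51 to 25.8 CPM in non-raiding workers. In T. duloticus 2 venom gland contigs summed to 184 to 316 CPM in raiding and 410 to 583 CPM in non-raiding libraries. In T. pilagens 4 contigs of odorant-binding and odorant receptor names were listed as antenna markers. They summed to 901 to 1364 CPM in raiding and 2327 to 3061 CPM in non-raiding libraries. Of these 4, 3 lay below 0, 2 of them called lower, and 1 lay above 0. The single muscle contig of T. ambiguus, a titin, was at 0 in all 4 defending libraries and at 0.733 to 1.09 CPM in the non-raiding ones. No oenocyte name was found among the calls of T. duloticus or T. ambiguus. These markers were also known by name only where the study had called them, so a tissue without named markers was not measured.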

How the data were processed

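RNA from pooled whole workers was sequenced, and the authors assembled a transcriptome for each species with CLC and MIRA, named contigs by BlastX and counted reads per contig with eXpress. The submitters' notes also name FastQC, Trimmomatic, TopHat2 2.0.13 and Bowtie. The deposited values are whole-number counts per contig and library, not normalized; the call tables give the match title, the aligned positions and a bit score, which the authors took from BlastX. Columns of the authors' own comparisons (fold changes, likelihood ratios, p-values) were not used, and 88 per-library columns in later blocks of the tables were left out.

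Members and lists were chosen with earlier results of these data known. The states of libraries come from the labels, with 4 T. duloticus libraries matched by number. Within each species, contigs passing filterByExpr (minimum count 10) were fitted with edgeR 4.0.16 (TMM scaling, quasi-likelihood F test, Benjamini-Hochberg adjustment over all tested contigs, threshold 0.05) in R 4.3.3, on the 42 libraries the study kept. The SE is the absolute log2 fold change over the square root of F. The script was tested on simulated data. Alternatives were all 48 libraries, no filter, RLE factors, the likelihood ratio test, DESeq2 1.42.0, each library left out, other sums, and, chosen after seeing the data, sums without the contig of highest CPM. Non-overlap means that all kept libraries of a state lie above all of the other.

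Named contigs were every member other than fatty acid synthase, in each species the 6 fatty acid synthase contigs of highest mean CPM, the highest and lowest by fold change, and all with the rarer sign; in each pathway list, the called contig of largest fold change. Other contigs named in the text were chosen after their values were seen. Marker terms were trimmed by name, leaving out protease inhibitors and names that only contain actin.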

Additional observations from a re-analysis of the deposited data

Results flagged for a closer look

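In 3 of the 60 groups of 4 libraries looked at (named members and summed levels, all 8 libraries of a species), 1 library lay far from the other 3, and chance gives such a gap in about 1 of 20 groups. Raiding library DR_424 of T. duloticus had 107 CPM of contig c8221, where the other raiding libraries had 48.1 to 53.7 CPM. Non-raiding library BR_417 of T. duloticus had 165 CPM of c8764, where the other non-raiding libraries had 219 to 226 CPM. Non-raiding library BR_680 of T. pilagens had 6.46 CPM of c13203, where the other non-raiding libraries had 21.8 to 24.4 CPM.

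The log2 ratio of summed fatty acid synthase between the states lay 4.64 higher in T. ambiguus than in T. duloticus and 4.23 higher than in T. pilagens, with opposite signs. If the slavemaker labels, which names in the files go against, were exchanged, these gaps would be 0.52 and 0.93 and all 3 ratios would be positive. The difference between species was not tested, since each species has its own assembly and its contigs were chosen for differing.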

How the results depend on the processing

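No paired analysis was possible because the labels give the pools no shared number, although the same colonies were pooled in both states. Every named member kept its direction under every alternative run, which the choice of members by calls on the same libraries favours. Over these members and alternatives the call was the same in 294 cases, gained in 36 and lost in 21. The number of members called by the main test was 15 in T. duloticus, 11 in T. pilagens and 0 in T. ambiguus. Leaving out 1 library gave 9 to 17, 8 to 12 and 0. Over all contigs the main test called 151, 1105 and 0, and leaving out 1 library gave 35 to 196, 248 to 823 and 0 to 5. The likelihood ratio test called 18 in T. pilagens and 6 in T. ambiguus (6 without the low-count filter), and DESeq2 called 17 and 6. The cause was not tested.

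Of the other fatty acid contigs, the main test called 5 in T. americanus, against 12 with all libraries, 17 by the likelihood ratio test, 16 by that test without the filter, 17 by DESeq2 and 0 to 5 without 1 library. Over all contigs of this species the counts were 325, against 907, 1106, 1115, 1841 and 22 to 212 in the same order. In T. duloticus the main test called 4. The likelihood ratio test, that test without the filter and DESeq2 called 14, 12 and 13, and fits without 1 library called 1 to 4. Over all contigs of T. duloticus the counts were 151, against 936, 905, 1951 and 35 to 196. In T. pilagens the main test called 31, against 15 to 26 without 1 library, where it called 1105 and 248 to 823 of all contigs. In T. longispinosus it called 0, against 1, 1 and 1 by the other 3 tests, where all contigs gave 0, 83, 177 and 100. In T. ambiguus it called 0, against 12, 10 and 10 and 0 to 1 without 1 library. There all contigs gave 0, 300, 347, 470 and 0 to 5. Nothing is read from these counts beside those of all contigs.

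The summed fatty acid synthase level gave log2 ratios of -2.19 to -1.998 in T. duloticus, -1.75 to -1.51 in T. pilagens and 2.33 to 2.86 in T. ambiguus without 1 library. The median of the contigs' log2 fold changes was -2.75 in T. duloticus and -1.38 in T. pilagens. Without the contig of highest CPM, an alternative chosen after seeing the data, the ratio was -1.94 in T. pilagens and 1.09 in T. ambiguus, where c3932 carries nearly the whole sum. Depth limits the contigs of few counts most: every kept library of a state had fewer than 100 counts of c9661 and contigs 352 of BR_420, 6734 of BR_417, 7822 and 7857 of BR_419 in T. duloticus, of c23564, c33723 and c8136 in T. pilagens, and of c26567 in T. ambiguus.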
